A study of Homo sapiens with 6 samples.

Results

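LX-2 is an established human hepatic stellate cell line. Hepatic stellate cells are the retinoid-storing mesenchymal cells beside the liver sinusoids. In injured liver they lose their retinoid droplets, divide, contract and lay down scar matrix, and TGF-β1 is the cytokine best known for driving that change. LX-2 cells are used as a model of stellate cells that have already left the quiescent state. The transcriptome described here is that of LX-2 cells transfected with small interfering RNA (siRNA) to NSUN2, the enzyme that puts 5-methylcytosine into RNA, before any TGF-β1 was added.

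The libraries were chosen by their labels alone: NSUN2 siRNA and no TGF-β1, which took 3 of the 6 libraries of the series. The other 3 libraries had the same siRNA followed by TGF-β1 at 5 ng/ml for 24 hours, begun 48 hours after transfection, and were not used here. The design text of the series names NAT10 as well as NSUN2 for this siRNA; the sample labels were followed. Replicates are labelled biological, without a statement that they came from separate cultures, and the harvest time of the cells without TGF-β1 is not labelled. Cells without siRNA were not analysed here, so every value is a level in siRNA-treated cells, no gene is called higher or lower than in another condition, and no p-value is given.

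Levels are the authors' FPKM, counts scaled to gene length and library size, given as the mean ± SD of 3 libraries. A gene is called expressed at 1 FPKM or more in each of the 3 libraries. The floor is 3 counts summed over the 3 libraries, which is the upper limit that a count of 0 allows. Intervals and floors cover counting error only. The libraries held 30034762, 29257393 and 26957170 counts, of which 98.0% fell on protein-coding genes. Replicates were alike: Pearson's r of log2 FPKM across the expressed genes, which are not independent, was 0.996 for each pair. They still differed by more than counting noise, with a chi-square of 3.66 to 4.19 per degree of freedom. The median coefficient of variation (CV) between libraries was 5.63% for expressed genes of 1 to 10 FPKM, 3.17% for 10 to 100 FPKM and 2.34% from 100 FPKM upward. Counting alone would give 3.76%, 1.85% and 0.827% in the same classes if each count were an independent fragment. Whether both mates of a pair were counted is not known; at 2 counts a fragment, counting would give 5.32%, 2.62% and 1.17%, the chi-square would be 1.83 to 2.10 per degree of freedom and the floor would be 6 counts.

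Of 19951 protein-coding genes, 10492 were expressed, or 52.6%. A mean of at least 100 FPKM was reached by 268 genes, or 1.34%, and 14 genes reached 1000 FPKM. At the low end, 4451 genes, or 22.3%, had no more than 3 counts over the 3 libraries, and 3599 of them had 0. The median level was 1.54 FPKM over all protein-coding genes and 7.95 FPKM over the expressed ones. The 52.6%, 1.34% and 22.3% are the background for the counts of members given for each gene list. Over the 1405 distinct protein-coding genes of the 55 lists, 738 were expressed. State genes (proliferation, cytoskeleton, metabolism) were expressed in 204 of 247 cases, matrix genes in 140 of 243, receptors in 210 of 419, lineage genes in 119 of 265 and ligands in 113 of 306.

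**Figure D1:**
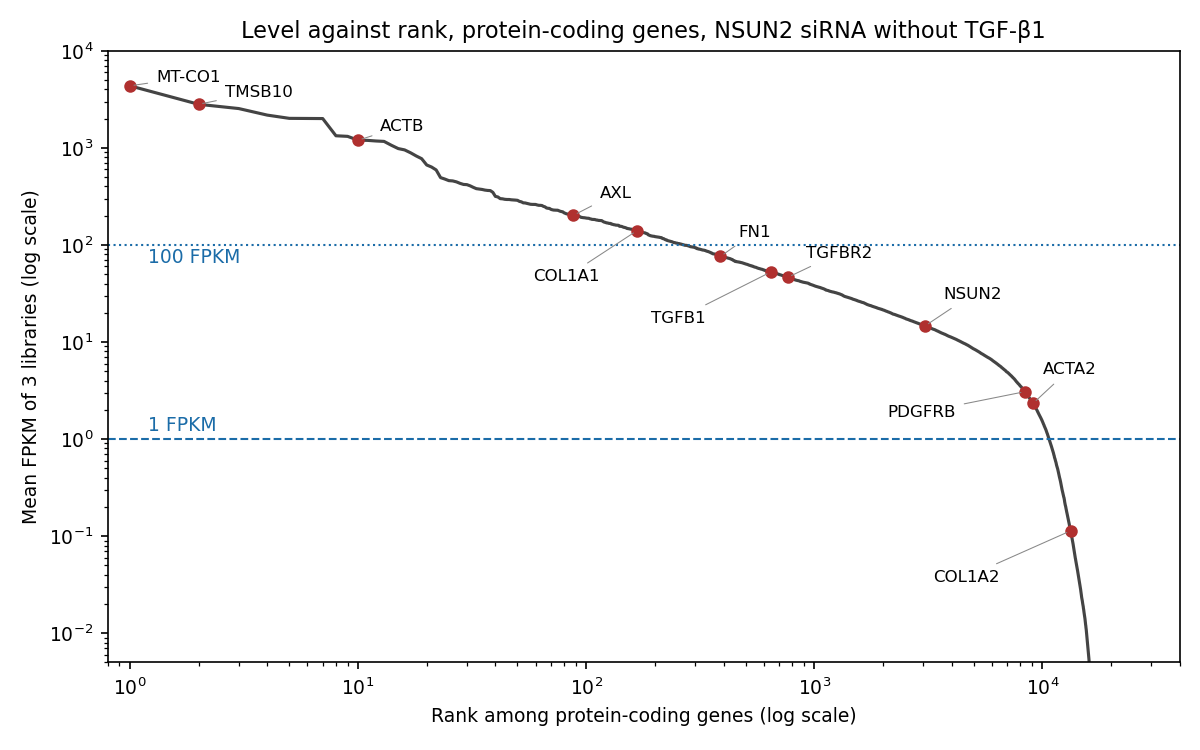
Mean FPKM of each protein-coding gene (y axis, log scale) against its rank (x axis, log scale), with 12 genes marked and the 1 and 100 FPKM levels drawn. COL1A1 lies at rank 167, while COL1A2 lies at rank 13285, well under 1 FPKM.

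The most abundant messages came from mitochondrial DNA and from the actin cytoskeleton. MT-CO1, a subunit of cytochrome c oxidase encoded in the mitochondrial genome, ranked first at 4355, 4252 and 4449.7 FPKM in the 3 libraries (4353 ± 98.7). TMSB10, which codes for the actin monomer-binding thymosin β10, ranked second at 2748, 2678 and 3000.2 FPKM (2809 ± 169.6). Of the 25 highest genes, 11 were mitochondrial and together held 8.90 to 9.23% of protein-coding FPKM, although all mitochondrial genes took only 2.28 to 2.36% of counts. The 10 highest genes held 10.2 ± 0.14% of protein-coding FPKM, the 100 highest held 25.6 ± 0.24% and the 1000 highest held 56.3 ± 0.24%. Across the libraries 95 genes were among the 100 highest in all 3.

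The nuclear genes of the top 25 were few in kind. Cytoskeletal genes were ACTB at 1198 ± 53.9 FPKM and ACTG1 at 1063 ± 33.3 FPKM, the cytoplasmic actins, with TMSB10 and TMSB4X (493 ± 16.5 FPKM), the thymosins that hold actin monomers. Glycolysis was represented by GAPDH at 1313 ± 28.1 FPKM and TPI1 at 634 ± 19.3 FPKM. Iron, metal and stress proteins were FTL, the ferritin light chain (2004 ± 79.6 FPKM), MT2A, a metallothionein (824 ± 33.8 FPKM), and the chaperones HSPA8 (592 ± 8.75 FPKM) and CALR (459 ± 8.17 FPKM). EEF1A1, the translation elongation factor, stood at 1165 ± 5.46 FPKM. G0S2, an inhibitor of the lipase that empties lipid droplets, was at 773 ± 18.3 FPKM. LGALS1, the lectin galectin-1, was at 952 ± 18.2 FPKM. The 88 cytosolic ribosomal protein genes together held 4.63 to 4.84% of protein-coding FPKM.

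Rank depends on the length each gene is divided by, because the deposited gene length is that of all exons of a gene merged. With the longest coding transcript in place of the merged exons, 19 of the 25 genes remained, and PKM, ENO1, ANXA2, RPLP0 and RPSA were among those that entered. Ranked by counts, 13 of the 25 remained. Ratios between genes rest on the merged-exon lengths too, and only that of COL1A1 to COL1A2 was recomputed with another length. The SD of a ratio covers the libraries only, not the choice of length.

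Among mesenchymal genes, 15 of 24 were expressed. VIM, the mesenchymal intermediate filament vimentin, was at 203, 196 and 199.9 FPKM (199.8 ± 3.59). SPARC, a collagen-binding matricellular protein, was at 162, 162 and 157 FPKM (161 ± 2.9), and COL1A1, a chain of type I collagen, at 141, 139 and 140.0 FPKM (140.1 ± 0.956). CDH2, or N-cadherin, reached 50.1 ± 0.838 FPKM and THY1, a fibroblast surface protein, 12.7 ± 0.841 FPKM. The set was incomplete in the same libraries. DCN, the proteoglycan decorin, and PRRX1, a transcription factor of fibroblasts, had 0 counts in every library, which allows up to 0.00252 and 0.00393 FPKM. LUM had 8 counts in all, FAP had 10, POSTN had 26 and PDGFRA had 34. None of DCN, PRRX1, LUM, FAP, POSTN or PDGFRA reached 0.1 FPKM, and none of these genes had 30% or more of its exon bases under another gene on the same strand.

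Of 24 stellate identity and quiescence genes, 10 were expressed. GATA4, a transcription factor known for holding stellate cells quiescent, was at 5.51, 6.25 and 6.32 FPKM (6.03 ± 0.447). LHX2, another factor of stellate cell development, was at 3.19 ± 0.205 FPKM and HAND2 at 1.71 ± 0.151 FPKM. The vitamin D receptor VDR stood at 5.31 ± 0.0832 FPKM, the lipid droplet protein PLIN2 at 5.42 ± 0.686 FPKM and the nerve growth factor receptor NGFR at 2.61 ± 0.084 FPKM. The highest member was LRRC17 at 105 ± 5.04 FPKM. LRAT, the enzyme that esterifies retinol for storage, had 0 counts in every library (up to 0.00429 FPKM). Desmin (DES) had 6 counts over the 3 libraries, CYGB had 22, the transcription factor PPARG had 27 and HGF had 31. GFAP, a filament protein of stellate cells and glia, had 178 counts and a mean of 0.159 FPKM.

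Genes of activated stellate cells were nearly all expressed, 18 of 20 with a median of 42.7 FPKM, beside the background of 52.6% of protein-coding genes. The list was written with earlier results of these data known, so this comparison is not a test of cell state. LOXL2, a collagen cross-linking oxidase, was at 181, 181 and 179 FPKM (180.2 ± 0.714), and TIMP1, an inhibitor of metalloproteinases, at 165, 159 and 164 FPKM (162 ± 2.75). CTGF, also named CCN2, reached 72.9 ± 1.09 FPKM and the collagen chaperone SERPINH1 60.5 ± 0.842 FPKM. The 2 members not expressed were COL1A2 and POSTN. ACTA2, the α-smooth muscle actin that defines the myofibroblast, passed at 2.28, 2.53 and 2.19 FPKM (2.33 ± 0.179), rank 9099.

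ACTA2 was set beside its cytoplasmic relatives, because actin messages resemble each other. Within each library ACTB exceeded ACTA2 by 517, 497 and 529 times, and ACTB exceeded ACTG1 by only 1.13 ± 0.016 times. The last 60 coding bases of ACTB, ACTG1 and ACTA2 (GENCODE release 29, hg38), stop codon included, are shown as an example of how these messages differ. Capitals mark bases that differ from ACTB.
ACTB: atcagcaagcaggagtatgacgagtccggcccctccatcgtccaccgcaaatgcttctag
ACTG1: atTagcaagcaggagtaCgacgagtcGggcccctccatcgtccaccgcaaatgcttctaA
ACTA2: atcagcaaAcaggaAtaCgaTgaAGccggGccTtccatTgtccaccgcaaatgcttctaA
ACTG1 differs from ACTB at 4 of these 60 bases and ACTA2 at 10. Over the whole coding sequence ACTG1 is 91.2% identical to ACTB and ACTA2 81.8%. No stretch of 50 coding bases of ACTA2 occurs in the other 5 actin genes compared (ACTB, ACTG1, ACTC1, ACTG2 and ACTA1). Exons of ACTA2 have 30.1% of their bases under genes on the opposite strand only, of which ACTA2-AS1 shares the most. Whether the counting used strand is not stated in the sources used here.

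Several other contractile genes were higher than ACTA2. TAGLN, or transgelin, was at 23.2 ± 2.08 FPKM, CNN1, or calponin 1, at 12.1 ± 0.0309 FPKM, TPM2 at 64.8 ± 1.74 FPKM and MYL9 at 88.6 ± 4.14 FPKM. Smooth muscle genes were uneven: MYH11, the smooth muscle myosin, had 146 counts (0.0973 FPKM) and LMOD1 had 37 (0.102 FPKM). MYOCD, the smooth muscle coactivator myocardin, stood at 1.35 ± 0.151 FPKM, and the smooth muscle actin ACTG2 at 4.58 ± 0.643 FPKM, above ACTA2. SRF, the factor that binds CArG boxes of such genes, was at 10.7 ± 0.282 FPKM. Of 38 actin and contractile genes, 33 were expressed and 15 reached 100 FPKM, among them PFN1 (372 ± 11.8 FPKM), MYH9 (291 ± 5.24 FPKM) and FLNA (205 ± 1.48 FPKM). Of 14 smooth muscle and pericyte genes, 8 were expressed, led by MCAM at 51.5 ± 0.672 FPKM and CSPG4, the NG2 proteoglycan, at 51.3 ± 1.06 FPKM.

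The 250 bases before the start sites of ACTA2 and FN1 (RefSeq, GRCh38.p14) are shown as an example of a low and a high mesenchymal gene. Capitals mark matches, on both strands, to CCAAT, to GGGCGG (the GC box), to TGACGTCA (the cAMP response element) and to the CArG box with at most 1 C or G among its 6 core bases; TATAAA was searched too.
ACTA2, chr10:88952774-88953023, minus strand: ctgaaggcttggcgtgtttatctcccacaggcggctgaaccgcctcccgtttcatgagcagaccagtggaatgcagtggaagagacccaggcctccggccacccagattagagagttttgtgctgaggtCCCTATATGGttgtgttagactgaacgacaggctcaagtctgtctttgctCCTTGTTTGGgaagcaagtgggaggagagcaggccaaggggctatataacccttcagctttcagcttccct
FN1, chr2:215436069-215436318, minus strand: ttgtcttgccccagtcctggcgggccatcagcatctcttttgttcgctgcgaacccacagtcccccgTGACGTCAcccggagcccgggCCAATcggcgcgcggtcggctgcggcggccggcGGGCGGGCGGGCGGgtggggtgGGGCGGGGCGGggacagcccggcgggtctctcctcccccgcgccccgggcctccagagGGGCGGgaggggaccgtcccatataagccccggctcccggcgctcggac
The ACTA2 window holds 2 CArG matches and no exact match to the other letters searched. Variants of TATAAA were not searched. The FN1 window holds 6 GC boxes, some of them overlapping, 1 cAMP response element and 1 CCAAT. Of 35116 windows of this length in the RefSeq table, 7.04% hold such a CArG match, 42.6% a GC box, 32.0% a CCAAT, 1.65% the cAMP response element and 10.7% TATAAA. A match describes the letters only. RefSeq lists another ACTA2 start further upstream, whose window holds 2 GC boxes and no CArG match; both starts lie within the span of the gene in the table or at its edge.

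Markers of other liver cells were mostly at or near 0. Of 18 hepatocyte genes, 13 had no more than 3 counts, among them ALB with 1 count and APOA2, TTR, FGA and FGB with 0. CPS1, a urea cycle enzyme, was the exception at 6.0, 6.14 and 6.71 FPKM (6.28 ± 0.376), with SERPINA1 at 4.91 ± 0.442 FPKM. Of 16 endothelial genes, 2 were expressed: the receptors TIE1 at 27.3, 29.6 and 29.5 FPKM (28.8 ± 1.31) and TEK at 4.1 ± 0.505 FPKM. The defining endothelial genes were not: PECAM1 had 67 counts, CDH5 had 10, and ERG and LYVE1 had 0. Of 15 macrophage genes, CD14, a lipopolysaccharide co-receptor, was the 1 expressed (4.37 ± 0.632 FPKM), while PTPRC had 4 counts and C1QA and VSIG4 had 0. CD68 had 21 counts, with 81.7% of its exon bases under another gene on the same strand. Of 13 lymphocyte genes, IL7R, the interleukin-7 receptor, was the 1 expressed, at 51.4, 49.9 and 49.3 FPKM (50.2 ± 1.09), and CD3E, CD2 and MS4A1 had 0 counts.

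Epithelial and mesothelial genes were partly present. Of 16 cholangiocyte and epithelial genes, 5 were expressed: KRT18 at 64.4 ± 2.54 FPKM, KRT8 at 30.6 ± 1.63 FPKM, SOX9 at 17 ± 0.273 FPKM, OCLN at 4.48 ± 0.13 FPKM and CLDN4 at 1.56 ± 0.076 FPKM. The keratins KRT7 and KRT19 lay at 0.672 and 0.033 FPKM, and the epithelial adhesion genes CDH1 and EPCAM had 5 and 15 counts. Of 8 mesothelial genes, WT1 (5.31 ± 0.311 FPKM), a transcription factor of the embryonic mesothelium, and PDPN (2.56 ± 0.245 FPKM) were expressed and MSLN was at 0.687 FPKM. Of 13 portal fibroblast genes, 6 were expressed, with IGFBP6 at 77.9 ± 2.1 FPKM, GREM1 at 75 ± 2.15 FPKM, FBLN2 at 28.4 ± 0.515 FPKM and SLIT2 at 21.3 ± 0.378 FPKM, while ELN, or elastin, had 0 counts. Of 11 neural and glial genes only NGFR was expressed. In the labelled stellate cell line, 15 of 24 mesenchymal, 18 of 20 activation and 10 of 24 stellate identity and quiescence genes were expressed. The background was 52.6% of protein-coding genes. LRAT, DCN and PRRX1 had 0 counts, and LUM, FAP, POSTN, PDGFRA and COL1A2 were not expressed.

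**Figure D2:**
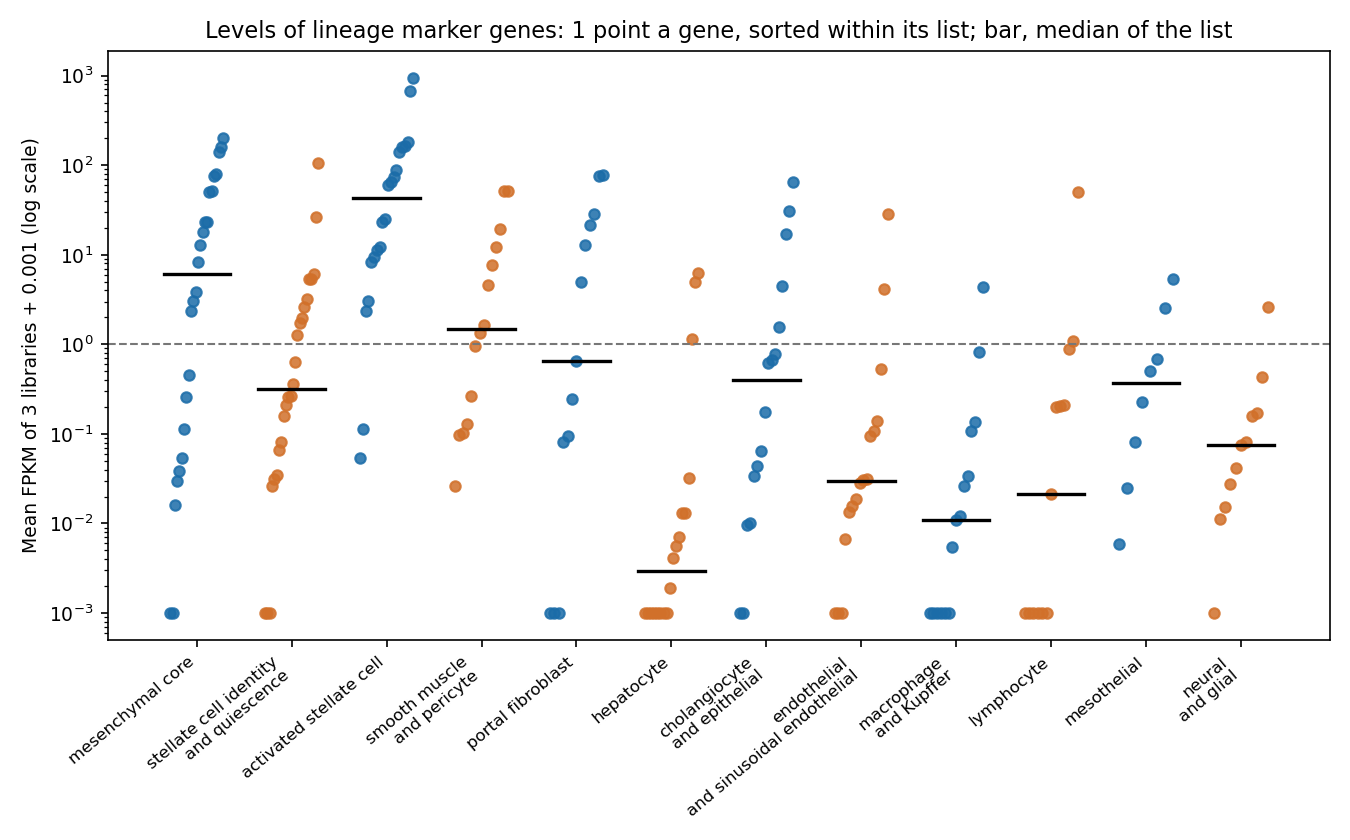
Mean FPKM plus 0.001 (y axis, log scale) of each marker gene, sorted within 12 lineage lists (x axis); bars are list medians, and genes at 0 lie on the bottom row. The activated stellate list has the highest median, 42.7 FPKM, and the hepatocyte list the lowest, 0.00198 FPKM.

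Transcription factors of mesenchyme and position were expressed in 44 of 57 cases. The AP-1 members FOSL1 (184, 199 and 182 FPKM, 188 ± 9.3) and JUN (113 ± 0.834 FPKM) were highest. Next came NR2F2, an orphan nuclear receptor of mesenchyme (58.8 ± 2.86 FPKM), TEAD4 (38.8 ± 1.12 FPKM), a DNA-binding partner of YAP, FOSL2 (34 ± 0.862 FPKM) and ETS1 (32 ± 0.842 FPKM). TBX3 stood at 26.2 ± 0.909 FPKM and its relative TBX18 at 6.32 ± 0.243 FPKM. The forkhead factor FOXF1, a stellate and visceral mesenchyme gene, was at 7.84 ± 0.683 FPKM. TWIST2 (12 ± 0.532 FPKM) exceeded TWIST1 (3.87 ± 0.554 FPKM), and SNAI2 (10.8 ± 0.131 FPKM) exceeded SNAI1 (4.22 ± 0.169 FPKM), in each library. MEF2C had 4 counts beside 5.8 ± 0.179 FPKM of MEF2D and 5.4 ± 0.175 FPKM of MEF2A, which bind the same sites.

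HOX genes, which record position along the body axis, differed by cluster. HOXB had 8 of 10 genes expressed, HOXC 7 of 9, HOXD 3 of 9 and HOXA 0 of 11. The cluster medians were 7.13, 2.16, 0.744 and 0.515 FPKM in that order, so HOXD and HOXA lay close together below the 1 FPKM line. Of all 39 HOX genes 18 were expressed, and the number was 24 at 0.5 FPKM and 27 with TPM. HOXB7 was highest at 23.8, 22.7 and 24.2 FPKM (23.6 ± 0.734), followed by HOXB9 (22.3 ± 0.812 FPKM) and HOXB2 (17.8 ± 0.608 FPKM). HOXC members from HOXC4 (4.36 ± 0.318 FPKM) to HOXC13 (1.99 ± 0.147 FPKM) lay in a narrow range, with HOXC5 (27 counts) and HOXC12 (12 counts) as exceptions. In HOXD, HOXD8, HOXD9 and HOXD10 were expressed, at 2.16 ± 0.306, 2.35 ± 0.358 and 3.75 ± 0.208 FPKM. The highest HOXA gene, HOXA11, had 1.15, 0.923 and 1.32 FPKM, on both sides of the 1 FPKM line, and HOXA9 and HOXA10 had 4 and 5 counts. Exons of HOXC5, HOXD3, HOXD4 and HOXA4 lie 30% or more under a neighbour on the same strand.

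**Figure D3:**
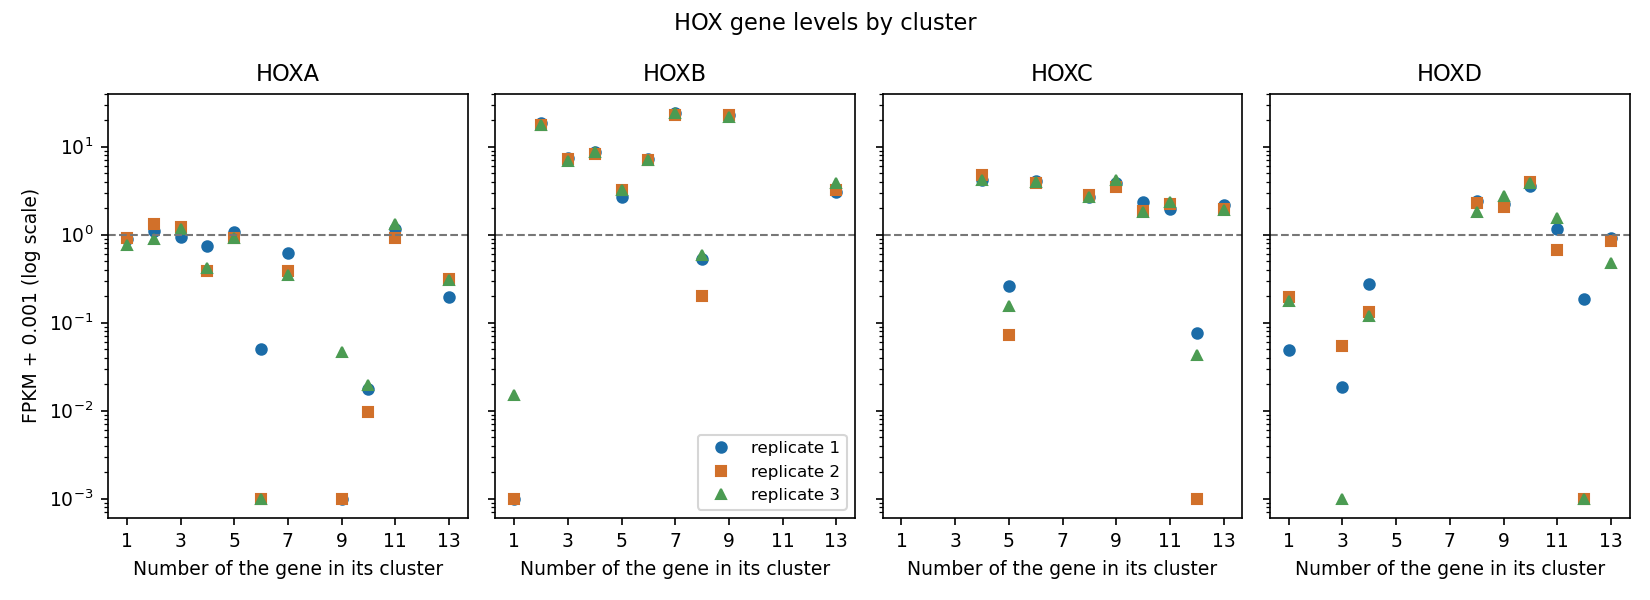
FPKM plus 0.001 (y axis, log scale) of each HOX gene in each of the 3 libraries (symbols) against its number in the cluster (x axis), in 4 panels. HOXB genes reach 23.6 FPKM (HOXB7), whereas no HOXA gene lies above 1 FPKM in all 3 libraries.

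Type I collagen was represented almost entirely by the COL1A1 chain. Type I collagen is the main fibre of liver scar and is normally built of COL1A1 and COL1A2 chains. COL1A1 (ENSG00000108821, chromosome 17, 50183289 to 50201632, hg38) was at 141, 139 and 140.0 FPKM, with 44520, 43015 and 39722 counts, and was the 167th protein-coding gene by level. COL1A2 (ENSG00000164692, chromosome 7, 94394561 to 94431232) was at 0.137, 0.0855 and 0.118 FPKM, with 49, 30 and 38 counts. The ranges did not come near each other: the log2 ratio of COL1A1 to COL1A2 was 10.01, 10.67 and 10.21 in the 3 libraries (10.30 ± 0.34, SD, n = 3). COL1A2 exons do not overlap another gene on the same strand, nor do those of COL1A1. The size of the ratio rests on few COL1A2 counts and falls to 9.37 when 0.1 FPKM is added to both values, and to 6.99 with 1 FPKM.

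Of 11 fibrillar collagen chains, 5 were expressed: COL1A1, COL5A2 at 76 ± 2.86 FPKM, COL5A1 at 18 ± 0.865 FPKM, COL3A1 at 8.29 ± 0.803 FPKM and COL27A1 at 2.68 ± 0.156 FPKM. The pair that makes type V collagen was uneven as well, with COL5A2 exceeding COL5A1 by 4.22 ± 0.14 times. COL3A1, the chain of the reticular fibres of liver, lay under COL1A1 by a log2 ratio of 4.08 ± 0.13. Of 33 other collagen chains, 13 were expressed. COL6A2 (79.8 ± 1.01 FPKM) and COL6A1 (51.2 ± 1.34 FPKM) led, and the third chain of the usual type VI molecule, COL6A3, was at 12.4 ± 0.339 FPKM. COL4A2 (22.2 ± 1.0 FPKM) and COL4A1 (18.3 ± 0.822 FPKM), the common basement membrane chains, which share a divergent promoter, were near each other with a ratio of 1.21 ± 0.026. COL12A1, a collagen of fibril surfaces, stood at 35.4 ± 0.919 FPKM, and COL18A1, the source of endostatin, at 13.6 ± 0.212 FPKM. COL14A1, also of fibril surfaces, had 4 counts.

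The enzymes that fold, hydroxylate and cross-link collagen were mostly present, 26 of 33. P4HB, the common subunit of prolyl 4-hydroxylase, was at 169 ± 3.54 FPKM, its catalytic partners P4HA1 and P4HA2 at 63.3 ± 3.91 and 32.5 ± 1.04 FPKM, and P4HA3 at 0.174 FPKM. Lysyl hydroxylases PLOD1, PLOD2 and PLOD3 stood at 58.8 ± 0.476, 28.3 ± 1.58 and 29 ± 0.598 FPKM. In the lysyl oxidase family LOXL2 was far above LOXL1 (15.2 ± 0.855 FPKM), LOX (9.44 ± 0.805 FPKM), LOXL4 (1.33 ± 0.139 FPKM) and LOXL3 (1.22 ± 0.205 FPKM). For removal of propeptides, BMP1 was at 18.3 ± 0.366 FPKM, whereas the amino-terminal proteinases ADAMTS2, ADAMTS3 and ADAMTS14 were each under 1 FPKM (0.188, 0.79 and 0.496 FPKM).

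Laminins, the trimeric proteins of basement membrane, were expressed in a pattern with a marked imbalance. Of 16 laminin, nidogen and perlecan genes, 11 were expressed. LAMB3 was highest at 67.3, 67.8 and 66.8 FPKM (67.3 ± 0.476), whereas LAMA3, an α chain that assembles with LAMB3, was at 0.409, 0.411 and 0.427 FPKM. LAMC1 (65.4 ± 0.544 FPKM), LAMB1 (43.8 ± 0.885 FPKM), LAMB2 (30.9 ± 0.83 FPKM) and LAMA5 (35.6 ± 0.558 FPKM) were the chains at similar levels, with LAMA4 at 3.33 ± 0.216 FPKM. NID1, which bridges laminin to collagen IV, was at 57.5 ± 0.826 FPKM and HSPG2, or perlecan, at 5.72 ± 0.221 FPKM.

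**Figure D4:**
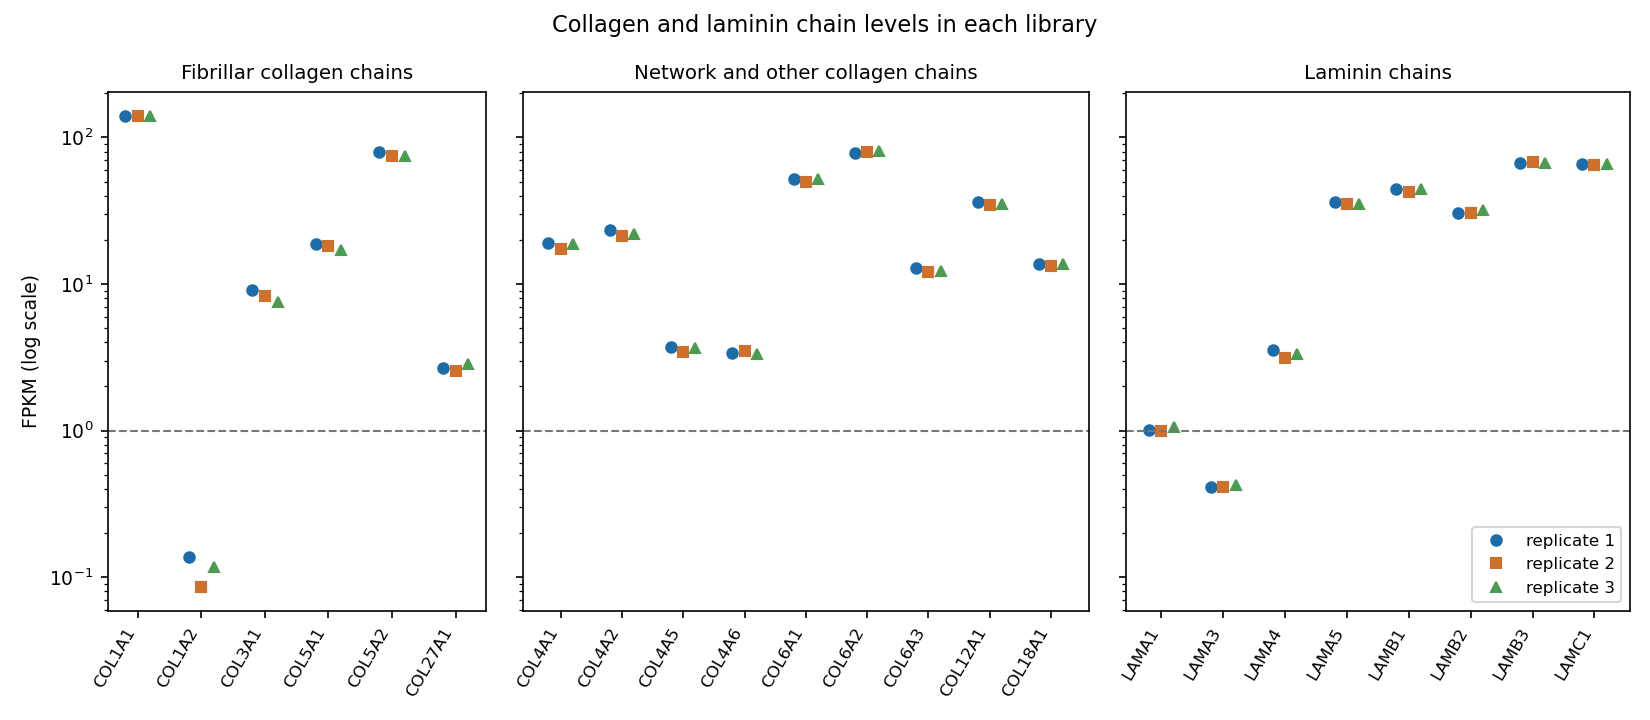
FPKM (y axis, log scale) of collagen and laminin chains (x axis) in each of the 3 libraries (symbols), with 1 FPKM dashed. COL1A2 lies at 0.137, 0.0855 and 0.118 FPKM while COL1A1 lies near 140.1 FPKM; LAMB3 lies near 67.3 FPKM and LAMA3 near 0.416 FPKM.

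Among 49 matrix glycoproteins, 27 were expressed and 3 reached 100 FPKM: CYR61, also named CCN1 (181, 192 and 176 FPKM, 183 ± 8.54), SPARC, and tenascin TNC (113 ± 2.37 FPKM). TGFBI (91.1 ± 1.01 FPKM), THBS2 (81.1 ± 1.5 FPKM) and fibronectin FN1 (76.1, 76.8 and 75.5 FPKM, 76.2 ± 0.657) followed. FBN1, the main fibrillin of microfibrils, was at 23.5 ± 0.479 FPKM, and the latent TGF-β binding proteins LTBP4, LTBP3 and LTBP1 at 14.9 ± 0.851, 11 ± 0.454 and 9.37 ± 0.486 FPKM. EMILIN1, MFAP4 and FBLN5, other elastic fibre proteins, lay at 0.173, 0.65 and 1.15 FPKM.

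Cell-surface and intracellular proteoglycans prevailed over those of the fibre. Of 38 proteoglycan and hyaluronan genes 14 were expressed. SRGN, or serglycin, an intracellular granule proteoglycan, was highest at 246, 235 and 239 FPKM (240.1 ± 5.33). CD44, the hyaluronan receptor, was at 105 ± 2.09 FPKM, SDC4 at 69.1 ± 2.8 FPKM, SDC1 at 59.1 ± 1.31 FPKM and GPC1 at 37.4 ± 0.49 FPKM. The small leucine-rich proteoglycans that bind collagen fibrils were near 0 in all 3 libraries: DCN and FMOD had 0 counts, BGN had 2, LUM had 8 and PRELP had 18. VCAN, or versican, was at 5.99 ± 0.136 FPKM and HAS2, the hyaluronan synthase, at 6.89 ± 0.456 FPKM.

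Matrix proteinases were led by MMP1, the interstitial collagenase, at 147, 148 and 152 FPKM (149 ± 2.57), and by MMP14, a membrane-bound collagenase and activator of MMP2, at 87.5 ± 1.83 FPKM. Of 23 matrix metalloproteinases, 10 were expressed. MMP9 stood at 18.9 ± 0.52 FPKM and MMP2 at 4.78 ± 0.326 FPKM. Of their inhibitors, TIMP1 exceeded MMP1 by 1.09 ± 0.025 times, TIMP2 was at 66.7 ± 1.84 FPKM and TIMP3 at 10.4 ± 0.443 FPKM, while TIMP4 and A2M had 0 counts. In the plasmin system the urokinase receptor PLAUR was at 63.5 ± 0.774 FPKM, and the plasminogen activators PLAT and PLAU were at 49.9 ± 0.669 and 36.4 ± 0.724 FPKM. SERPINB2, an inhibitor of these activators, was at 115 ± 4.89 FPKM. Cathepsins CTSL (152 ± 7.25 FPKM) and CTSZ (150.2 ± 2.47 FPKM) were the highest of 27 other proteases, of which 23 were expressed. The aggrecanases ADAMTS4 and ADAMTS5 stood at 0.085 and 0.109 FPKM.

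The parts of the TGF-β pathway that a later TGF-β1 stimulus would meet were present. TGF-β binds TGFBR2, which recruits and phosphorylates TGFBR1, and the complex phosphorylates SMAD2 and SMAD3, which enter the nucleus with SMAD4. TGFBR2 was at 47.5, 44.4 and 47.2 FPKM (46.3 ± 1.73) and TGFBR1 at 21.5, 20.2 and 20.2 FPKM (20.6 ± 0.767), a ratio of 2.25 ± 0.082. The co-receptors ENG and TGFBR3 stood at 30.7 ± 0.437 and 2.47 ± 0.248 FPKM. Of the receptor-activated SMADs, SMAD3 was at 32.7 ± 0.625 FPKM and SMAD2 at 2.41 ± 0.0832 FPKM. On the deposited gene lengths, SMAD3 exceeded SMAD2 by 13.6 ± 0.68 times. SMAD4 was at 4.31 ± 0.0725 FPKM and the inhibitory SMAD7 at 3.2 ± 0.429 FPKM. Levels of TGFB1 itself were 51.7, 53.6 and 52.1 FPKM (52.5 ± 0.994), 30.9 ± 3.3 times those of TGFB2 (1.71 ± 0.175 FPKM), and TGFB3 was at 0.729 FPKM.

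Of 18 TGF-β family receptors, 10 were expressed, and of 41 ligands and antagonists, 16. For BMP signals, BMPR2 (15.7 ± 0.558 FPKM), ACVR1 (9.82 ± 1.29 FPKM) and BMPR1A (3.02 ± 0.134 FPKM) were expressed, and SMAD5 (11.1 ± 0.415 FPKM) was higher than SMAD1 (0.676 FPKM) in each library. BMP ligands were low, with BMP4 at 0.65 FPKM and BMP2 at 0.0396 FPKM, whereas the BMP antagonist GREM1 was the highest gene of the list at 77.2, 74.8 and 72.9 FPKM (75 ± 2.15). FSTL1 reached 66.7 ± 2.35 FPKM and INHBA, the activin A subunit, 8.88 ± 0.399 FPKM. The activin receptors of type II were under the line, ACVR2A at 0.681 FPKM and ACVR2B at 0.923 FPKM. ACVRL1, the TGF-β and BMP9 receptor of endothelium, had 45 counts.

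Receptor tyrosine kinases were led by AXL, at 202, 206 and 198 FPKM (202 ± 3.94), the 88th protein-coding gene. Of 51 such receptors, 28 were expressed. GAS6, the ligand of AXL, was also present at 16.7 ± 0.716 FPKM, 12.1 ± 0.42 times lower than AXL, and the related receptors TYRO3 and MERTK at 6.21 ± 0.297 and 3.11 ± 0.468 FPKM. MET (44.6 ± 0.466 FPKM), EPHA2 (43.7 ± 0.749 FPKM), TIE1 (28.8 ± 1.31 FPKM), FGFR1 (22.1 ± 0.873 FPKM) and PTK7 (21.8 ± 0.684 FPKM) followed. Members of a family differed widely in level. Of the FGF receptors, FGFR1 stood above FGFR3 (1.49 ± 0.308 FPKM) and FGFR4 (0.83 FPKM), and FGFR2 had 0 counts (up to 0.00428 FPKM). Of the EGF receptor family, EGFR (13.9 ± 0.297 FPKM) and ERBB2 (13 ± 0.305 FPKM) were expressed, ERBB3 had 120 counts and ERBB4 had 0. Of the VEGF receptors, FLT1 (16.5, 16 and 16.5 FPKM, 16.3 ± 0.264) and FLT4 (4.9 ± 0.124 FPKM) were expressed and KDR had 17 counts.

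Platelet-derived growth factor receptors, the classical mitogen receptors of stellate cells, were low. PDGFRB was at 3.03, 3.1 and 3.11 FPKM (3.08 ± 0.041) and PDGFRA at 0.0512, 0.0163 and 0.0462 FPKM, with 34 counts in all. The ligand PDGFC was at 23.8 ± 0.502 FPKM, 7.72 ± 0.26 times PDGFRB, with PDGFA at 4.59 ± 0.237 FPKM, PDGFB at 2.01 ± 0.197 FPKM and PDGFD at 0.18 FPKM. PDGFC and PDGFA act mainly through PDGFRA. The discoidin receptors for collagen, DDR2 and DDR1, stood at 9.65 ± 0.157 and 6.84 ± 0.159 FPKM.

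Growth factor ligands were expressed in 26 of 53 cases. GRN (131 ± 4.58 FPKM) and MDK, or midkine (65.8 ± 2.1 FPKM), were highest. VEGFB was at 45.1 ± 1.88 FPKM, VEGFC at 15.1 ± 0.538 FPKM and VEGFA at 4.65 ± 0.114 FPKM. The EGF receptor ligand HBEGF was at 26.3 ± 2.02 FPKM and AREG at 5.32 ± 0.693 FPKM. FGF2 and FGF5, both ligands of FGFR1, stood at 16.6 ± 0.116 and 13.9 ± 0.924 FPKM. HGF, the mitogen for hepatocytes that quiescent stellate cells make, had 12, 9 and 10 counts, and IGF1 had 0. IGF2 had 86 counts, but 73.7% of its exon bases lie under another gene on the same strand.

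Integrins for fibronectin and laminin were high. ITGB1, the shared β subunit, was at 176, 167 and 177 FPKM (173 ± 5.3), ITGA3 at 148, 144 and 149 FPKM (147 ± 2.93) and ITGA5, of the fibronectin receptor, at 92.5 ± 1.99 FPKM. Of 26 integrin subunits, 13 were expressed. ITGAV, which with ITGB5 and others can release TGF-β from its latent form, was at 12.7 ± 0.528 FPKM, ITGB5 at 9.07 ± 0.174 FPKM and ITGB3 at 4.89 ± 0.389 FPKM (with 51.6% of its exon bases under another gene on the same strand), while ITGB6 and ITGB8 had 20 and 65 counts. The collagen receptor subunit ITGA2 was at 31.5 ± 1.9 FPKM, ITGA1 at 1.73 ± 0.14 FPKM and ITGA11 at 0.181 FPKM. ITGA8 had 0 counts. Cadherins and immunoglobulin adhesion genes were expressed in 22 of 32 cases, with CDH4 (52.8 ± 0.866 FPKM) next to CDH2, ICAM1 at 32.8 ± 1.4 FPKM and VCAM1 at 1.58 ± 0.192 FPKM.

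Of 34 chemokine genes, 8 were expressed and 16 had no more than 3 counts. CXCL8, a neutrophil chemokine, was at 142, 128 and 132 FPKM (134 ± 7.27), CXCL1 at 80.4, 74.2 and 70.9 FPKM (75.2 ± 4.81) and CCL5, an attractant of T cells and monocytes, at 71.5, 75.4 and 69.9 FPKM (72.3 ± 2.87). CCL2, a monocyte chemokine, had 8, 2 and 8 counts, a mean of 0.0989 FPKM. CXCL12 lay at 1.32, 1.28 and 0.712 FPKM, across the 1 FPKM line. Of 49 interleukin, interferon and haematopoietic cytokine genes, 13 were expressed: IL1B was at 146, 139 and 141 FPKM (142 ± 3.44), IL11 at 46.2, 45.8 and 45.3 FPKM (45.8 ± 0.435), IL32 at 20.5 ± 0.712 FPKM, LIF at 7.32 ± 0.504 FPKM and IL6 at 3.84 ± 0.443 FPKM. IL1RN, the antagonist of the IL-1 receptor, had 0 counts. Of 18 TNF superfamily ligands, CD70 (13.1 ± 0.679 FPKM), TNFSF4 (10.9 ± 0.197 FPKM) and TNFSF12 (7.27 ± 0.633 FPKM) were expressed, and TNF had 7 counts.

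Cytokine receptors were expressed in 21 of 47 cases. IL6ST, the shared signalling chain gp130 of the interleukin-6 family, was at 105, 100.1 and 98.8 FPKM (101 ± 3.26). Its partners were uneven: OSMR at 47.1 ± 1.68 FPKM and LIFR at 4.62 ± 0.25 FPKM, but IL11RA at 0.889, 0.967 and 1.13 FPKM and IL6R at 0.449, 0.483 and 0.488 FPKM. IL6ST exceeded IL6R by 215 ± 17.0 times. Interferon receptor genes IFNAR1, IFNGR1 and IFNGR2 stood at 21.6 ± 1.18, 11.3 ± 0.726 and 15.8 ± 0.739 FPKM; IFNAR2 was at 0.2 FPKM with 44.2% of its exons under another gene on the same strand. IL1R1 and its partner IL1RAP were at 3.8 ± 0.162 and 4.11 ± 0.177 FPKM. Of 28 TNF receptors, 18 were expressed, led by TNFRSF12A (78.7 ± 0.871 FPKM), TNFRSF10B (59.8 ± 1.06 FPKM) and TNFRSF1A (49 ± 0.145 FPKM).

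Chemokine receptors were nearly absent, with CCRL2 (3.54 ± 0.388 FPKM) and CCR10 (1.06 ± 0.0375 FPKM) the 2 expressed of 23, and 11 at no more than 3 counts. At 2 FPKM the number was 1, and with TPM, on which values are higher, it was 5. CCR2 and CXCR3 had 0 counts. Toll-like receptors were low too: TLR4, the lipopolysaccharide receptor, was at 0.182 FPKM and TLR3 at 0.0927 FPKM, whereas the TLR4 partners LY96 and CD14 stood at 6.95 ± 1.73 and 4.37 ± 0.632 FPKM. Cytosolic nucleic acid sensors were expressed, including TMEM173, or STING (9.94 ± 0.503 FPKM), CGAS (6.16 ± 0.128 FPKM) and DDX58, or RIG-I (8.56 ± 0.481 FPKM). Of 24 pattern recognition receptors, 12 were expressed.

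Of 58 G protein coupled receptors with known roles in stellate cells or their relatives, 24 were expressed. LPAR1, a receptor for lysophosphatidic acid, was at 16.1 ± 0.945 FPKM, S1PR1 and S1PR3, receptors for sphingosine 1-phosphate, at 7.72 ± 0.71 and 3.98 ± 0.179 FPKM, and F2R, the thrombin receptor, at 6.25 ± 0.422 FPKM. OXTR, the oxytocin receptor, was at 13.2, 12.2 and 12.2 FPKM (12.5 ± 0.542). The α1-adrenergic receptor ADRA1D was at 1.56 ± 0.16 FPKM. Receptors of endothelin, angiotensin II and vasopressin named in the list were under 1 FPKM: EDNRA at 0.492, 0.337 and 0.318 FPKM, EDNRB with 8 counts, AGTR1 at 0.277, 0.503 and 0.378 FPKM and AGTR2 and AVPR1A with 0 counts. The cannabinoid receptors CNR1 and CNR2 had 2 and 0 counts. Among 22 vasoactive and hormone-like ligands, 7 were expressed, with the stanniocalcins STC1 and STC2 at 80.5 ± 2.38 and 43.7 ± 0.527 FPKM and ADM, adrenomedullin, at 15.5 ± 0.479 FPKM. EDN1 lay at 1.27, 1.39 and 0.987 FPKM, across the 1 FPKM line, and AGT had 8 counts.

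Of 42 ligands and antagonists of the Wnt, Notch and Hedgehog pathways, 10 were expressed. The highest were DKK1, SFRP1 and DKK3, secreted inhibitors or relatives of inhibitors of Wnt signalling, at 95.1 ± 2.48, 89.4 ± 6.42 and 84.7 ± 0.672 FPKM. The highest Wnt ligands were WNT5B (11.2 ± 0.64 FPKM) and WNT5A (4.83 ± 0.247 FPKM), and WNT3A had 2 counts. The receptors FZD2, FZD7, LRP5 and LRP6 stood at 21.4 ± 1.18, 15.5 ± 0.364, 8.65 ± 0.388 and 6.76 ± 0.523 FPKM. NOTCH2 (52.6 ± 1.28 FPKM) was the main Notch receptor, ahead of NOTCH1 (9.03 ± 0.295 FPKM) and NOTCH3 (1.63 ± 0.0608 FPKM), with JAG1 at 4.25 ± 0.105 FPKM. SMO (7.79 ± 0.385 FPKM), GLI2 (6.23 ± 0.303 FPKM) and PTCH1 (1.4 ± 0.0823 FPKM) of the Hedgehog pathway were expressed, while SHH and IHH had 4 and 2 counts. Of guidance genes, 13 of 20 receptors and 19 of 29 ligands were expressed, with SEMA7A highest at 94 ± 2.26 FPKM and PLXNB2 at 37.3 ± 1.04 FPKM. SLIT2 was at 21.3 ± 0.378 FPKM, ROBO1 at 0.33 FPKM and ROBO2 at 0 counts.

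Among 48 nuclear receptors, 21 were expressed. NR2F2 led, followed by NR1H2, or LXRβ (23.3 ± 0.528 FPKM), PPARD (18.8 ± 0.897 FPKM) and the glucocorticoid receptor NR3C1 (14.7 ± 0.18 FPKM). The retinoid receptors RARA, RARG, RXRA and RXRB stood at 5.65 ± 0.341, 3.49 ± 0.178, 2.27 ± 0.0325 and 12.9 ± 0.343 FPKM. NR1H4, or FXR, the bile acid receptor, had 10 counts. Of 32 retinoid and lipid genes, 18 were expressed, led by the lipogenic SCD (58.7 ± 3.42 FPKM), PLIN3 (40.7 ± 1.72 FPKM), RDH11 (28.6 ± 0.594 FPKM) and FASN (26.3 ± 0.965 FPKM). For retinoic acid synthesis ALDH1A3 was at 4.89 ± 0.192 FPKM and ALDH1A1 at 0 counts. Of 18 uptake receptors 11 were expressed, among them TFRC (43.8 ± 0.802 FPKM), MRC2, a collagen uptake receptor (20.5 ± 0.32 FPKM), and LRP1 (14.6 ± 0.277 FPKM). Of 18 IGF-binding and other secreted carriers, 11 were expressed, with PSAP (278 ± 4.66 FPKM), IGFBP4 (192 ± 4.36 FPKM) and PTX3 (111 ± 5.68 FPKM) over 100 FPKM.

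Ligands and receptors of the same cells were set side by side in 72 pairs, a receptor being counted only if all its listed chains were expressed. Both partners were expressed in 25 pairs, the ligand alone in 17, the receptor alone in 20 and neither in 10. Over the lists, 113 of 306 ligand genes and 210 of 419 receptor genes were expressed. The pairs were chosen with earlier results of these data known. Whether partners were expressed together more often than unrelated genes was not tested. Complete pairs included TGFB1 with TGFBR1 and TGFBR2, GAS6 with AXL, FGF2 with FGFR1, HBEGF with EGFR, IL1B with IL1R1, TNFSF12 with TNFRSF12A, and JAG1 with NOTCH2. Ligands without their receptor included CXCL8 (CXCR2 at 0.098 FPKM), CCL5, PDGFC, KITLG (7.78 ± 0.412 FPKM, KIT with 18 counts) and CSF1 (10.4 ± 0.56 FPKM, CSF1R at 0.818 FPKM). Receptors without their ligand included MET with HGF, TNFRSF1A with TNF, OSMR with OSM, and IGF1R (5.37 ± 0.23 FPKM) with IGF1. Without the third library, 6 pairs had neither partner expressed and 21 had the ligand alone, because CXCL12 (1.32, 1.28 and 0.712 FPKM, paired with CXCR4 and ACKR3) and EDN1 (1.27, 1.39 and 0.987 FPKM, paired with EDNRA and EDNRB) were under 1 FPKM only there. IL11 fell among ligands without a receptor only because IL11RA had 0.889, 0.967 and 1.13 FPKM.

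**Figure D5:**
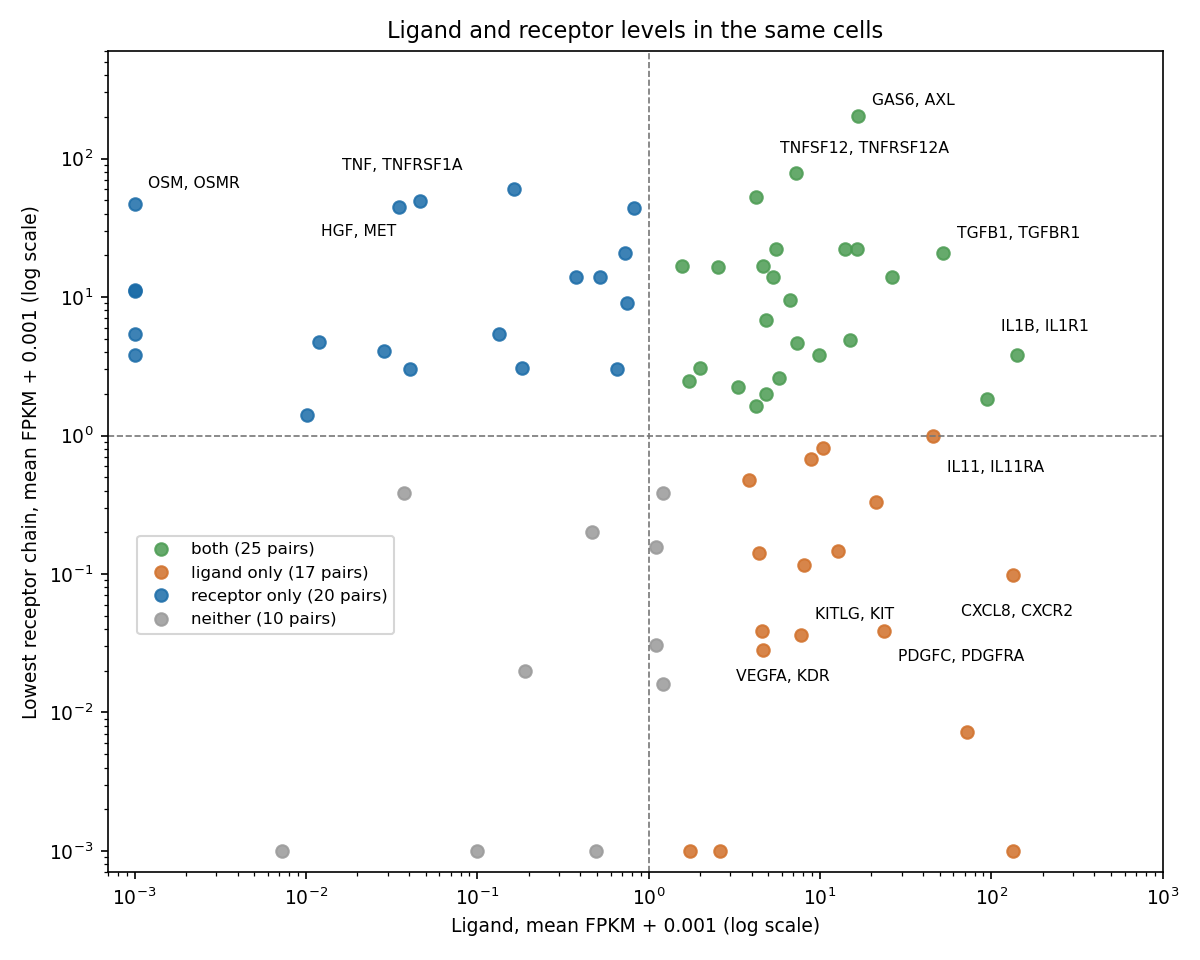
Mean FPKM plus 0.001 of the ligand (x axis, log scale) against that of the lowest receptor chain (y axis, log scale) for 72 pairs, coloured by which partner is expressed, with 1 FPKM dashed. GAS6 and AXL lie at the top of the 25 complete pairs; CXCL8 and CXCR2 lie at the lower right.

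Proliferation and glycolysis genes were expressed without exception among those listed. All 28 proliferation genes were expressed, with PCNA at 201 ± 1.82 FPKM, CCNB1 at 169.5 ± 3.15 FPKM, TOP2A at 125 ± 3.19 FPKM and MKI67 at 56.3 ± 0.935 FPKM. The cell cycle inhibitors CDKN2A and CDKN1A stood at 62.4 ± 3.45 and 51.2 ± 2.52 FPKM in the same libraries, and 17 of 18 inhibitor and p53 target genes were expressed. All 22 glycolysis genes were expressed, with PKM at 456 ± 7.17 FPKM and LDHA at 205 ± 7.74 FPKM. ALDOA was at 1.55 ± 0.0602 FPKM, but 42.3% of its exon bases lie under another gene on the same strand, and LDHB was at 4.11 ± 0.242 FPKM with 33.4%. Interferon-stimulated genes were expressed in 23 of 28 cases, led by IFITM3 (133 ± 3.02 FPKM) and ISG15 (69.8 ± 1.45 FPKM), and MX1 was at 0.916 FPKM. All 3 libraries had the siRNA, so its part in these levels cannot be told apart. MHC class I genes HLA-B and B2M stood at 261 ± 4.41 and 229 ± 6.52 FPKM, while HLA-DRA had 2 counts and CIITA was at 0.149 FPKM.

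Among the RNA-modifying enzymes, the gene named on the labels was still measurable. NSUN2 had 2546, 2525 and 2364 counts, or 14.4, 14.6 and 14.9 FPKM (14.6 ± 0.233), rank 3054. NAT10, the RNA acetyltransferase named in the design text, was at 12.1, 13.4 and 11.6 FPKM (12.4 ± 0.882). NSUN2 exceeded NAT10 by 1.19, 1.09 and 1.28 times. How far either was lowered by the siRNA was not analysed here. Of 16 enzymes and readers of 5-methylcytosine and acetylcytidine in RNA, 14 were expressed, and the readers YBX1 and ALYREF stood at 392 ± 6.86 and 62 ± 2.11 FPKM. NSUN5, NSUN6, NSUN3 and NSUN4 were at 4.24 ± 0.355, 1.94 ± 0.112, 1.83 ± 0.0837 and 2.5 ± 0.0862 FPKM, and NSUN7 had 2 counts. NOP2 was at 0.348 FPKM, with 54.4% of its exons under another gene on the same strand. Antioxidant genes were expressed in 20 of 26 cases, with GSTP1 (175 ± 5.12 FPKM) and TXN (139 ± 2.4 FPKM) next to MT2A, and the superoxide-producing NOX4 had 18 counts.

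Genes that share 30% or more of their exon bases with a neighbour on the same strand were often listed near 0. Of genes with no exon overlap on the same strand, 54.3% of 16526 were expressed. With an overlap under 30%, 63.6% of 2180 were expressed. Of genes overlapped over 30 to under 70% of their exon bases, 23.9% of 539 were, and of those overlapped over 70% or more, 0.567% of 706 were. Of the 4451 genes with no more than 3 counts, 666 were overlapped by 30% or more. Among all 19951 protein-coding genes, the classes overlapped by 30% or more held 539 and 706. How the counting treated reads that touch 2 genes is not stated in the sources used here, and its part in these values was not tested.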

How the data were processed

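RNA was sequenced from LX-2 cells, and the 3 libraries labelled with NSUN2 siRNA and no TGF-β1 were used. The deposited count table holds whole-number counts per gene, not normalized. The deposited FPKM table holds the authors' FPKM values; in each library an FPKM value was the count over gene length and over a common library size, 1.07 to 1.08 times the total count. The build was hg38 and the tools named were fastp and HISAT2 2.2.1, per the submitters' processing notes. Which program counted reads, whether by strand, and with which annotation is not stated there. All 58735 gene identifiers, lengths and positions matched GENCODE release 29. Both tables held 6 per-sample columns that matched no sample of the series and were not used.

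Means, SDs, ranks and counts over lists were computed in Python 3.11.15 with pandas 2.3.3, and exon overlaps with bedtools 2.31.1; overlap was called at 30% of exon bases on the same strand. A symbol with several identifiers was read at the one with most counts. The script was checked on simulated counts. Scaling factors for alternatives came from edgeR 4.0.16 and DESeq2 1.42.0; no test was run, since 1 condition was described. The members, the 55 gene lists and the 72 pairs were chosen with earlier results of these data known. The named genes are the 25 highest, members of the lists (the highest, then those near 0), members of the pairs, the 8 most variable genes with at least 10 FPKM, the 10 highest genes of other biotypes, and a fixed set including NSUN2, NAT10, ACTA2 and the fibrillar collagens; a few of these are not reported here. Alternatives were other FPKM thresholds, TPM, a count minimum of 10, other scaling, pseudocounts of 0.1 and 1, leaving out gene classes and each library in turn. The length of the longest coding transcript, a set without overlapped genes and all alternatives for the pairs were added after seeing the data.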

Additional observations from a re-analysis of the deposited data

How the results depend on the processing

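The number of expressed protein-coding genes, 10492, stayed within 1.5 times under each alternative tried (9250 to 12191), and lay between 10546 and 10566 when a library was left out. Leaving out a library can only keep or raise this number and those of the lists, because a gene must pass in each library used. The share of protein-coding FPKM in the 100 highest genes, 25.6%, moved by more than the spread of the libraries to 19.2% without mitochondrial genes, 26% without ribosomal protein genes, 15.8% as a share of counts and 24.6% with the longest coding transcript as length; leaving out a library gave 25.4 to 25.7%. The log2 ratio of COL1A1 to COL1A2, 10.30, kept its sign and was 9.37 with a pseudocount of 0.1, 6.99 with 1 and 9.80 with the longest coding transcript, and 10.11 to 10.44 without a library. Of the 55 lists, the number of expressed members moved by over 1.5 times for 3 at a threshold of 0.5 FPKM, 4 at 2 FPKM, 9 with TPM, 1 with the longest coding transcript and 0 when a library was left out. At 2 FPKM these were matrix metalloproteinases (10 to 6), chemokine receptors (2 to 1), vasoactive ligands (7 to 4) and retinoid and lipid genes (18 to 11). With TPM they were chemokines (8 to 13), chemokine receptors (2 to 5), TNF ligands (3 to 7), Wnt, Notch and Hedgehog ligands (10 to 16), and epithelial (5 to 8), mesothelial (2 to 4), macrophage (1 to 2), lymphocyte (1 to 3) and neural (1 to 2) genes. At 0.5 FPKM they were macrophage (1 to 2), lymphocyte (1 to 3) and TNF ligand genes (3 to 5), and with the longest coding transcript lymphocyte genes (1 to 2). Pairs with neither partner expressed went from 10 to 6 at 0.5 FPKM, to 4 with TPM and to 6 without replicate 3; the alternatives for pairs were chosen after seeing the data. Depth limits the low end: a value of a few counts has a wide counting error, and in each library more genes had 2 counts (2504 to 2568) than 1 (1470 to 1482), so whether mates of a pair were counted singly is not known. No paired analysis was possible because the results come from no test between groups.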

Other observations

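Genes outside the protein-coding class were led by structural and mitochondrial RNAs. MT-RNR2 and MT-RNR1, the mitochondrial ribosomal RNAs, were at 953 ± 30.1 and 438 ± 12.2 FPKM (SD, n = 3), and RN7SL2, an RNA of the signal recognition particle, at 922 ± 69.1 FPKM. FP236383.3, annotated as a long intergenic RNA, was at 514 ± 39.6 FPKM, and FP236383.2 at 108, 204 and 132 FPKM in the 3 libraries, a CV of 33.6%. The other 5 of the 10 highest were MTATP6P1, ANXA2P2 and RPS2P5, pseudogenes that resemble abundant genes and whose reads are uncertain for that reason, MT-TP, a mitochondrial transfer RNA gene, and GPX1. GPX1, a glutathione peroxidase, is annotated as a polymorphic pseudogene in the table and stood at 246 ± 1.99 FPKM.

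Among long intergenic RNAs, 246 of 7629 genes were expressed. NORAD was at 88.4 ± 2.27 FPKM, MALAT1 at 36.2 ± 1.35 FPKM and MEG3, an imprinted RNA, at 15.6 ± 0.18 FPKM. Among antisense RNAs, 231 of 5583 were expressed, with FGD5-AS1 at 68.8 ± 1.6 FPKM.

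The 8 protein-coding genes of at least 10 FPKM that varied most between the libraries were AC004556.1, MRPL24, NDUFAF8, EIF1B, CNRIP1, DCTPP1, ABRACL and PPIC. AC004556.1, on a scaffold outside the assembled chromosomes, stood at 24.1, 37.0 and 44.7 FPKM, a CV of 29.4%. The other 7 had CVs of 13.6 to 16.6%. MRPL24, a mitochondrial ribosomal protein gene, was at 14.4, 13.8 and 18.6 FPKM, and CNRIP1, which binds a cannabinoid receptor, at 9.17, 12.2 and 10.4 FPKM.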
